A study of Mus musculus with 2 samples.

Results

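The genes described here are 10 neutrophil genes, S100a8, S100a9, Retnlg, Csf3r, Cxcr2, Ly6g, Mmp8, Mmp9, Lcn2 and Ngp, taken by symbol from the 32285 genes of the deposited count matrices. Each symbol matched 1 gene, and all barcodes of both libraries were searched for them. The mice were wild type and had received burn/tenotomy, an injury that joins a skin burn to the cutting of a tendon. Their whole blood was run through the iChip, a microfluidic sorter of nucleated cells, and single cells were given barcodes on the 10x Genomics Chromium platform. The labels name the cells as cMPCs (circulating mesenchymal progenitor cells) together with blood cells, and both libraries, replicate 1 and replicate 2, belong to this 1 group. Nothing in the labels says whether the replicates came from separate mice or from pooled blood, so what separates them may be technical.

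Neutrophils are short-lived white cells that leave the bone marrow mature and are among the first to enter injured tissue. S100a8 and S100a9 encode calcium-binding proteins that pair to form calprotectin, which is stored in large amounts in the neutrophil cytosol and acts on Toll-like receptor 4 once released. Granule proteins are made in a fixed order during maturation in the marrow, azurophil granule proteins first, then specific granule proteins such as Ngp and Lcn2, then gelatinase granule proteins such as Mmp9, while Csf3r, Cxcr2 and Retnlg stay high or rise in the mature cell.

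All 10 genes are annotated as protein-coding in the mm10 assembly (GENCODE M21). S100a8 (ENSMUSG00000056054) lies on the plus strand at chr3:90668978-90670035 and S100a9 (ENSMUSG00000056071) on the minus strand at chr3:90692632-90695721, with 22596 bases between them. The other 8 lie on chromosomes 1 (Cxcr2), 2 (Mmp9 and Lcn2), 4 (Csf3r), 9 (Mmp8 and Ngp), 15 (Ly6g) and 16 (Retnlg). A RefSeq start site (build GRCm38.p6) was found for 9 of the 10. The 150 bases before it are shown for the 3 genes with the most UMIs, S100a8, S100a9 and Retnlg, and for Ngp, the early granule gene with 1 UMI. Capitals mark 3 motifs, each searched on both strands. They are the TATA box, spelled TATAAA, the core of sites for C/EBP factors, spelled TTNNGNAA, and the core of PU.1 sites, spelled GAGGAA, which reads TTCCTC on the opposite strand.
S100a8, chr3:90668921-90669070, plus strand: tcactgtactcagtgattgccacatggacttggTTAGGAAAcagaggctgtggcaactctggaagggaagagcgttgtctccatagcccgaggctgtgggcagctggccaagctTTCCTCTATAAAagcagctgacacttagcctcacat
S100a9, chr3:90695722-90695871, minus strand: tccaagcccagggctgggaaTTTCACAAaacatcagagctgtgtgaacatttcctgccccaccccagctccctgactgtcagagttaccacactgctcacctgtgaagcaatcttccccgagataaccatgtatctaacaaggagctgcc
Retnlg, chr16:48872458-48872607, plus strand: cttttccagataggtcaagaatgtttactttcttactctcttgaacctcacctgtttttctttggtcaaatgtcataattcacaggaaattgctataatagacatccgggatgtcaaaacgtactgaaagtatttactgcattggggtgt
Ngp, chr9:110419658-110419807, plus strand: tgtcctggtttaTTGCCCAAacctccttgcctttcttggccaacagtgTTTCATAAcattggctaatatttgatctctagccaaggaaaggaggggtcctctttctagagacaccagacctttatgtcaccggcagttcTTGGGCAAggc
With the base before the start counted as -1, the S100a8 window held a C/EBP core at -117, a PU.1 core at -36 and, directly after it, a TATA box at -30. The S100a9 window held a C/EBP core at -130, the Ngp window held 3, at -138, -102 and -11, and the Retnlg window held none of the 3 motifs. Of 32851 promoter windows of the same length, 22.8% held the C/EBP core, 14.5% the PU.1 core and 7.57% the TATA box, and a match is a description of the letters only. The GENCODE starts of S100a8 and Ngp fall inside the windows shown for them, so the bases after those starts, with the S100a8 motifs at -36 and -30 and the Ngp core at -11 among them, lie within the GENCODE genes.

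Replicate 1 held 1008 barcodes with 3967318 UMIs (unique molecular identifiers, each standing for 1 captured RNA molecule) and replicate 2 held 849 barcodes with 3329292 UMIs, and the libraries had 0 barcode sequences in common. Every barcode was placed in 1 of 3 classes by haemoglobin and mitochondrial genes. Barcodes with over 20% mitochondrial UMIs are called high-mitochondrial, those at or under 20% with at least 40% haemoglobin UMIs red cell barcodes, and the remainder other-class barcodes. Other-class barcodes numbered 92 in replicate 1 and 134 in replicate 2, high-mitochondrial barcodes 440 and 328, and red cell barcodes 476 and 387. Median depth was 2048 and 914 UMIs in other-class barcodes of replicates 1 and 2, 788 and 793 in high-mitochondrial barcodes and 5962 and 5743 in red cell barcodes. Of the 5 mesenchymal markers listed, 4 were found in other-class barcodes of replicate 1 outside the neutrophil set described next (197 UMIs) and 5 in those of replicate 2 (465 UMIs). Doublets were neither called nor removed. Levels are given as CPM, UMIs per 1e6 UMIs of all genes in the named barcodes, with no correction for transcript length. Intervals are exact 95% intervals, and they and the floor of 3 UMIs that a count of 0 allows cover counting error only.

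The 10 genes were concentrated in a handful of cell barcodes of replicate 1. A barcode is called a neutrophil barcode here if it held at least 3 of the 10 genes and at least 10 of their UMIs. Replicate 1 had 4 such barcodes of 1008 (0.397%, interval 0.108 to 1.01%) and replicate 2 had 0 of 849, which allows a share of up to 0.353%. All 4 were other-class barcodes, and they held 4865 of the 4920 UMIs of the 10 genes in replicate 1 (98.9%). The barcode with the most, A, held 68.5% by itself. For comparison, the median of the 1472 genes with at least 50 UMIs in replicate 1 had 25.6% of its UMIs in its 4 richest barcodes. Ranked by that share among the 1472 genes, S100a9 was 3, S100a8 was 4, Retnlg was 5, Lcn2 was 7 and Csf3r was 23.

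Barcode A held 10304 UMIs of 2244 genes, B held 4998 of 1712, C held 3281 of 1264 and D held 559 of 170. S100a8 had 1302, 404, 115 and 117 UMIs in A, B, C and D. S100a9 had 1747, 353, 134 and 143 UMIs in A, B, C and D. The pair made up 29.6% of all UMIs of A, 15.2% of B, 7.59% of C and 46.5% of D. C and D thus held a similar number of its UMIs at very different shares. In the 4 barcodes together S100a9 made up 55.1% of the UMIs of the pair (interval 53.6 to 56.6%), and the ratio of S100a9 to S100a8 was 1.34, 0.874, 1.17 and 1.22 in A, B, C and D, with S100a8 ahead in B alone.

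Of the receptor genes, Csf3r encodes the receptor of granulocyte colony-stimulating factor, which drives neutrophil production, and Cxcr2 a chemokine receptor that draws neutrophils out of the marrow and into tissue. Csf3r had 19, 12, 18 and 2 UMIs in A, B, C and D, so all 4 barcodes held it, and its level was 1844, 2401, 5486 and 3578 CPM. Cxcr2 had 6, 1, 0 and 0 UMIs. Retnlg, a secreted resistin-like protein of mouse myeloid cells, had 216, 171, 9 and 1 UMIs in A, B, C and D, which is 20963, 34214, 2743 and 1789 CPM. A and B were thus rich in Retnlg and C and D poor, while C had the highest Csf3r level. The levels of D rest on 2 UMIs of Csf3r and 1 of Retnlg, under the floor of 3 UMIs. Ly6g, the surface protein against which the usual mouse neutrophil antibody is directed, had 19 UMIs in A, 1 in B and 0 in C and D.

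Of the granule genes, Lcn2, an iron-scavenging lipocalin, had 49, 7, 1 and 0 UMIs in A, B, C and D. Mmp9, the gelatinase of the gelatinase granules, had 4, 3, 2 and 0, and Mmp8, the neutrophil collagenase, had 7, 1, 0 and 0. Ngp, a cathelicidin-related specific granule protein, had 1 UMI, in B. Barcode A thus held 9 of the 10 genes (all but Ngp), B all 10, C 6 and D 4, and in D a gene with 0 UMIs may make up as much as 0.537% of its UMIs.

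**Figure D1:**
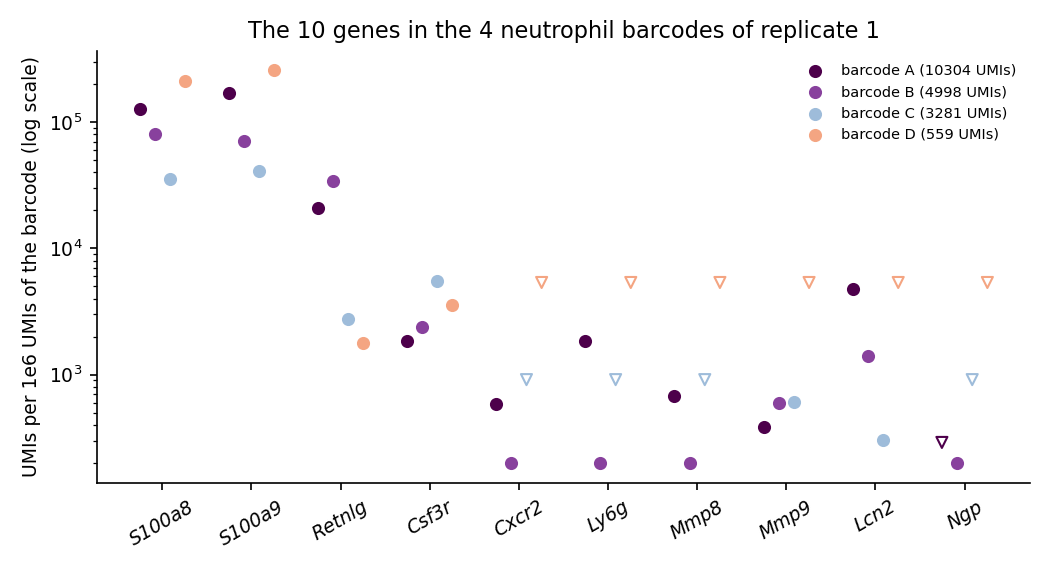
UMIs of each of the 10 genes per 1e6 UMIs of the barcode (log scale) in the 4 neutrophil barcodes of replicate 1, A to D. Open triangles mark genes with 0 UMIs at the floor of 3 UMIs. S100a8 and S100a9 sit highest in all 4 barcodes, Retnlg is high in A and B, and Ngp has a filled point in B alone.

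Mature genes, mainly Retnlg, made up most of the UMIs when they were set against early granule genes. Retnlg, Csf3r and Cxcr2 together had 455 UMIs in the 4 neutrophil barcodes, against 58 for Ngp and Lcn2, a mature share of 88.7% (interval 85.6 to 91.3%). Retnlg had 397 of the 455 mature UMIs, and Csf3r and Cxcr2 alone had 58, as many as the early genes. In A they had 25 against 49 early UMIs, in B 13 against 8 and in C 18 against 1. With Retnlg included, by barcode the mature share was 83.1% in A, 95.8% in B and 96.4% in C, and D had 3 mature and 0 early UMIs. Of the early UMIs 57 were Lcn2, 49 of them in A, and the share without A was 96.0%. The azurophil granule list (Mpo, Elane, Prtn3, Ctsg and Ms4a3), which marks promyelocytes, had 0 UMIs of its 5 genes in all barcodes of both libraries. Of the 7 further specific granule genes listed, Hp (haptoglobin) had 16 UMIs and Cd177 1 UMI in the 4 barcodes, and Ltf, Camp, Chil3, Itgb2l and Cebpe had 0. Cell cycle genes (Mki67, Top2a, Ccnb1 and Birc5) had 0 UMIs in the 4 barcodes, at a summed depth of 19142 UMIs that sets the floor at 156.7 CPM.

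Genes outside the 10 were read from lists by role, as levels in the 4 neutrophil barcodes set against the remaining 88 other-class barcodes of replicate 1 (240856 UMIs). There is 1 library to each side of this comparison, so no test was made. Among all 10048 genes with at least 5 UMIs in the series, 1492 (14.8%) were at least 2-fold higher in the neutrophil barcodes, many of them on a few UMIs. Of the 10048 genes, 6889 had no UMI in the neutrophil barcodes and so could not be called higher. The 14.8% is thus not a measure against which the lists can be set. Of the mature neutrophil list 12 of 12 genes with at least 5 UMIs were at least 2-fold higher, of the adhesion and Fc receptor list 5 of 6, of the regulator list 3 of 4, of the S100 family and receptor list 3 of 5 and of the activation list 3 of 9. The limit of 5 UMIs counts those of the neutrophil barcodes themselves. Stfa2l1, Trem1, Il1r2, Hcar2, Clec4d, C5ar1, Fpr2, Il1b and Acod1 reached it only through them. These counts are thus not independent of the filter, and they are a description and not evidence on the lists. Hp was the 1 specific granule gene with enough UMIs, 22.4-fold higher (interval 9.31 to 57.4).

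In the mature neutrophil list, Wfdc17, a small secreted protein of the whey acidic family, had 108 UMIs in the neutrophil barcodes and 5 in the remaining other-class barcodes, 272-fold higher by level (interval 113 to 854). Clec4d, a C-type lectin receptor for fungal and mycobacterial glycolipids, had 24 UMIs against 1, and Ccl6, a chemokine, had 29 against 2. Slpi, an inhibitor of neutrophil elastase, had 23 UMIs against 4 (72.4-fold, 24.7 to 288), and Msrb1, a methionine sulfoxide reductase, had 25 against 6 (52.4-fold, 21.0 to 156). Slpi was not confined to neutrophil barcodes. It had 36 UMIs in other-class barcodes of replicate 2 and 28 and 27 in high-mitochondrial barcodes of replicates 1 and 2. Stfa2l1, of a stefin family whose near-identical copies may share reads, had 9 UMIs against 0, at least 37.8-fold higher against the floor of 3 UMIs (the exact interval starts at 24.8-fold). Mxd1, Padi4, Il1r2, Trem1 and Hcar2 had 3 to 14 UMIs each in the neutrophil barcodes, and G0s2 had 0 UMIs in both libraries. Mxd1 also had 24 and 22 UMIs in red cell barcodes of replicates 1 and 2.

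Of the activation list, Il1b, the precursor of interleukin 1 beta, had 37 UMIs in the neutrophil barcodes, found in all 4, against 0 in the remaining other-class barcodes, at least 155-fold higher against the floor of 3 UMIs (the exact interval starts at 120-fold). Acod1, which makes itaconate, had 8 UMIs against 1, and Nfkbia, an inhibitor and early target of NF-kB, had 35 against 141 (3.12-fold, 2.09 to 4.55). The chemokine genes had their UMIs in the remaining barcodes. Cxcl2 had 0 UMIs in the neutrophil barcodes against 49, Ccl3 0 against 17 and Ccl4 0 against 20, and Tnf had 3 against 69 (0.547-fold, 0.110 to 1.67). At this depth the upper limit of the exact interval was 0.984-fold for Cxcl2, 3.05-fold for Ccl3 and 2.55-fold for Ccl4. The 49 Cxcl2 UMIs lay in 4 barcodes and the Tnf UMIs in 8.

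Of the adhesion and Fc receptor list, C5ar1, the receptor of complement C5a, had 29 UMIs in the neutrophil barcodes against 2 in the remaining other-class barcodes, with 20 of the 29 in C. Selplg, the P-selectin ligand, had 11 against 9 (15.4-fold, 5.79 to 42.0), Fpr2, a formyl peptide receptor, 7 against 3, and Fcgr3, an Fc receptor for IgG, 5 against 4. Itgam (CD11b) had 9 against 28 (4.04-fold, 1.68 to 8.82), while Itgb2, which encodes its partner chain, had 1 against 20 (0.629-fold, 0.0152 to 3.93). Among the regulators, Cebpd had 9 UMIs against 3, Spi1, which encodes PU.1, 10 against 17 (7.40-fold, 3.03 to 17.1) and Cebpb 10 against 55 (2.29-fold, 1.04 to 4.53), while Cebpa had 0 against 2.

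Within replicate 1, S100a6 and S100a11 of the other S100 genes listed were found in the neutrophil barcodes with the pair. S100a6 had 168 UMIs in the neutrophil barcodes against 78 in the remaining other-class barcodes (27.1-fold, 20.6 to 35.9) and S100a11 108 against 28 (48.5-fold, 31.8 to 76.4), both in all 4 barcodes. S100a10, the annexin A2 partner, had 0 against 31, and S100a4 had 0 against 11. The upper limit of the exact interval was 1.59-fold for S100a10 and 5.01-fold for S100a4. At this depth these counts of 0 thus do not show a lower level. In other-class barcodes of replicate 2, where the pair had 0 UMIs, S100a6 had 96, S100a11 51, S100a10 49 and S100a4 4. Tlr4, the receptor of calprotectin, had 2 UMIs against 6, and Ager, the receptor for advanced glycation end products, had 0 UMIs in both libraries.

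Lists of other cell types had few or 0 UMIs in the 4 barcodes. The B cell, T or NK cell, dendritic, eosinophil or basophil and platelet lists each had 0 UMIs. In the remaining other-class barcodes the T or NK cell list had 66.4 CPM and the eosinophil or basophil list 0. Both lie under the 156.7 CPM floor of the 4 barcodes, so these 2 absences do not set the 4 apart. The dendritic list had 53 UMIs there (220 CPM), but 39 of them were Siglech UMIs in 1 barcode. Its genes Flt3, Zbtb46 and Xcr1 lay under the floor, at 8.30, 49.8 and 0 CPM. The monocyte list had 11 UMIs, 8 of Lyz2 and 3 of Ly6c2, with Csf1r, Ccr2, Cx3cr1, Ms4a6c, F13a1 and Fn1 at 0. The erythroid list had 16 and the mesenchymal list 1. Csf1r, Ccr2, Ms4a6c and F13a1 lay under the floor in the remaining other-class barcodes too, at 45.7 to 116 CPM. Their counts of 0 thus do not set the 4 apart. Cx3cr1 and Fn1 lay above the floor there, with upper limits of the exact interval of 0.626-fold and 0.784-fold. In the remaining other-class barcodes of replicate 1 the B cell list had 882 UMIs and the monocyte list 264. By level Lyz2 was 1.83-fold that of the remaining barcodes (0.753 to 3.87), and Ly6c2 had 0 UMIs there. Ptprc, the leukocyte antigen CD45, had 59 UMIs against 368, 2.02-fold higher by level (1.51 to 2.66).

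**Figure D2:**
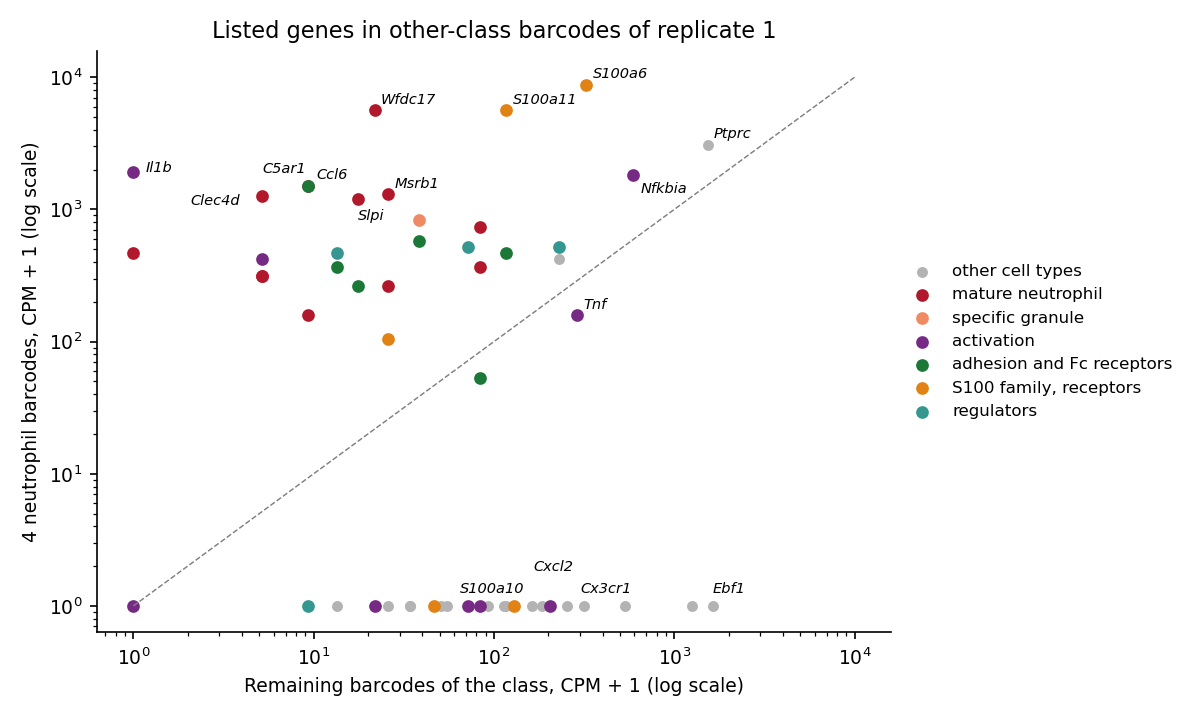
Level of each listed gene with at least 5 UMIs in the series, in CPM + 1 on log scales, in the 4 neutrophil barcodes (vertical axis) and the remaining 88 other-class barcodes of replicate 1 (horizontal axis), coloured by list, without the 10 genes themselves and the erythroid, mesenchymal and cell cycle lists. The dashed line marks equal levels. Genes of the mature neutrophil list lie above the line, Tnf lies below it, and Cxcl2, S100a10, Cx3cr1 and Ebf1 lie at 0 in the neutrophil barcodes.

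Barcode D stood apart from the other 3 in genes that were chosen after their values were seen. Malat1, a nuclear long noncoding RNA, had 403, 125 and 189 UMIs in A, B and C (3.91%, 2.50% and 5.76% of their UMIs), against 0 in D, where 3 UMIs would be 0.537%. D held Gm42418 at 5.73% of its UMIs, Il1b with 2 UMIs, Ptprc with 2 and 11 each of Ifitm1 and Wfdc17. Mitochondrial genes made up 0.709% of the UMIs of A, 7.64% of B, 0.488% of C and 0% of D. Of the barcodes inside the rule D had the fewest UMIs of the 10 genes, 263 over 4 genes, far above the limit. The pair made up 260 of these 263 UMIs. Just outside the rule stood an other-class barcode of replicate 1 with 5 of the 10 genes and 9 UMIs (721 UMIs in all, S100a8 1, S100a9 2, Retnlg 3, Csf3r 2 and Cxcr2 1) and a high-mitochondrial barcode with 4 genes and 8 UMIs (84.7% mitochondrial).

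The genes most like the pair were ranked by Pearson's r across all 1857 barcodes of both libraries, on log2(UMIs per 10000 + 1), against the sum of S100a8 and S100a9, among 4857 genes. These barcodes share libraries and depth, and since 4 of them carry nearly all UMIs of the pair the values describe those 4. The 10 highest were Il1b (0.72), Ifitm1 (0.71), Wfdc21 (0.70), Wfdc17 (0.64), Pglyrp1 (0.57), Clec4d (0.54), Ifitm2 (0.52), Tyrobp (0.49), Ccl6 (0.46) and S100a11 (0.45). Ifitm1, an interferon-induced membrane protein, had 189 of its 191 UMIs in the 4 barcodes (102, 60, 16 and 11 in A, B, C and D). Wfdc21 had 65 of 68 there, and Pglyrp1, a granule protein that binds bacterial peptidoglycan, 36 of 43. Tyrobp, the signalling adaptor DAP12 of many myeloid receptors, had 40 of 51. Of the other 8 genes Retnlg had the highest r with the pair (0.69), followed by Mmp9 (0.59), Csf3r (0.58), Lcn2 (0.55), Ly6g (0.47), Cxcr2 (0.43), Mmp8 (0.38) and Ngp (0.34).

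The libraries differed widely in these genes, and for S100a8 and S100a9 the difference lay in the 4 barcodes. Over all barcodes the pair had 4343 UMIs in replicate 1 and 27 in replicate 2, which is 1095 and 8.11 CPM (ratio 135, interval 92.6 to 205). Outside the neutrophil barcodes it had 28 UMIs in 18 barcodes of replicate 1 and 27 UMIs in 15 barcodes of replicate 2, which is 7.09 and 8.11 CPM (ratio 0.875, interval 0.497 to 1.54). The level outside the neutrophil barcodes was thus 7.60 ± 0.72 CPM (SD, n = 2), a spread far smaller than the difference over all barcodes. The other 8 genes did not follow this. Outside the neutrophil barcodes they had 27 UMIs in replicate 1, among them 15 of Csf3r and 6 of Retnlg, against 1 UMI in replicate 2, of Lcn2 (ratio 22.8, interval 3.75 to 932). Replicate 2 had 0 UMIs of Retnlg, Csf3r, Cxcr2, Ly6g, Mmp8, Mmp9 and Ngp over all its barcodes, where 3 UMIs would be 0.901 CPM. Against this floor Retnlg was at least 113-fold and Csf3r at least 18.5-fold higher over all barcodes of replicate 1. With 1 library to a side, none of these differences between libraries has a test.

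**Figure D3:**
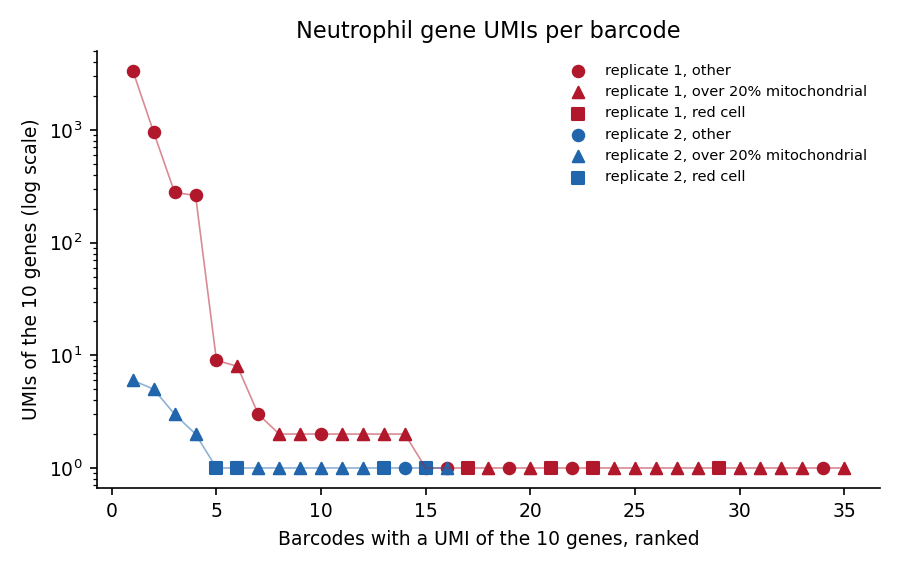
UMIs of the 10 genes per barcode (log scale) for the barcodes with at least 1 such UMI, ranked within each library, with replicate 1 in red and replicate 2 in blue and the marker showing the barcode class. In replicate 1 the 4 leading barcodes hold 263 to 3369 UMIs and the next holds 9, while in replicate 2 the leading barcode holds 6.

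Outside the 4 barcodes, the UMIs of the pair lay mainly in high-mitochondrial barcodes. Of 440 such barcodes in replicate 1, 14 held S100a8 or S100a9 (3.18%, interval 1.75 to 5.28%), with 22 UMIs in all, and of 328 in replicate 2, 11 held them (3.35%, 1.69 to 5.92%), with 23 UMIs. Of the red cell barcodes 2 of 476 in replicate 1 (0.420%, 0.0509 to 1.51%) and 4 of 387 in replicate 2 (1.03%, 0.282 to 2.63%) held the pair, each with 1 UMI. With every barcode thinned to 500 UMIs, the expected share was 1.85% of high-mitochondrial and 0.0531% of red cell barcodes in replicate 1, and 2.44% and 0.120% in replicate 2. No barcode was left out, since the lowest held 500 and 501 UMIs. Of the other-class barcodes that are not neutrophil barcodes, 2 of 88 in replicate 1 held the pair (4 UMIs) and 0 of 134 in replicate 2.

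As a level, the pair had 53.5 CPM in high-mitochondrial barcodes of replicate 1 (interval 33.5 to 81.1) and 70.9 CPM in those of replicate 2 (44.9 to 106), against 0.607 CPM in red cell barcodes of replicate 1 (0.0735 to 2.19) and 1.44 CPM in those of replicate 2 (0.392 to 3.68). The means over libraries were 62.2 ± 12.3 CPM and 1.02 ± 0.587 CPM (SD, n = 2 each), and the intervals of the 2 classes did not overlap in either library. A higher level in high-mitochondrial barcodes was not particular to the pair. Scaled by total UMIs alone, edgeR called 2815 of 3395 genes tested higher there than in red cell barcodes, and 168 lower. The ratio was 88.2 in replicate 1 (21.7 to 774) and 49.3 in replicate 2 (16.8 to 196). Haemoglobin UMIs made up most of the red cell depth and mitochondrial UMIs most of the other. With both left out of the denominator the ratio was 60.0 in replicate 1 (14.8 to 527) and 42.8 in replicate 2 (14.6 to 170).

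**Figure D4:**
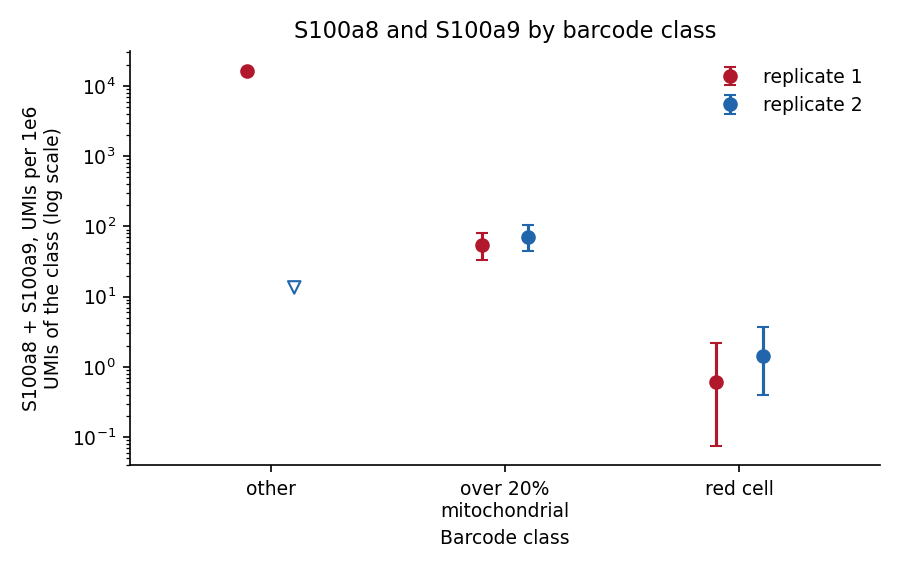
Summed level of S100a8 and S100a9 in CPM (log scale) by barcode class, replicate 1 in red and replicate 2 in blue, with exact Poisson 95% intervals. The open triangle marks 0 UMIs in the other-class barcodes of replicate 2, at the floor of 13.5 CPM. The libraries are far apart in other-class barcodes, at 16612 CPM and 0, and close to each other in high-mitochondrial barcodes, at 53.5 and 70.9 CPM.

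The make-up of the stray UMIs was set beside that of the neutrophil barcodes, and few UMIs stand behind each stray value. S100a9 made up 11 of 22 UMIs of the pair in high-mitochondrial barcodes of replicate 1 (interval 28.2 to 71.8%) and 16 of 23 in those of replicate 2 (69.6%, 47.1 to 86.8%), intervals that both cover the 55.1% of the neutrophil barcodes. Retnlg had 9.20 UMIs for each 100 of the pair in the neutrophil barcodes, against 1 for 22 in high-mitochondrial barcodes of replicate 1 and 0 for 23 in those of replicate 2. Csf3r had 1.18 for each 100 in the neutrophil barcodes, against 7 for 22 in high-mitochondrial barcodes of replicate 1 and 0 for 23 in those of replicate 2. Of the 5 high-mitochondrial barcodes with Csf3r, 4 held no UMI of the pair, and 3 of those 4 held Ptprc. Among other-class barcodes of replicate 1 outside the neutrophil set, 4 likewise held Csf3r without the pair, all 4 with Ptprc. Mmp8 had 2 UMIs in high-mitochondrial barcodes of replicate 1. In red cell barcodes the sole UMIs beside the pair were 2 of Retnlg, in replicate 1. Lcn2 was found with 1 UMI each in an other-class barcode with 12 UMIs of the mesenchymal list in replicate 1 and in one with 79 in replicate 2. A further stray UMI of Lcn2 lay in an other-class barcode of replicate 1 with 0 mesenchymal and 17 monocyte list UMIs, which also held 1 UMI each of S100a8 and Csf3r.

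High-mitochondrial barcodes with the pair were set against those without. In replicate 1 the 14 barcodes with it held 7 UMIs of the 10 most alike genes (374 CPM, interval 150 to 771), against 22 in the 426 without it (56.1 CPM, 35.1 to 84.9). In replicate 2 the 11 with it held 2 (191 CPM, 23.1 to 689), against 16 in the 317 without (50.9 CPM, 29.1 to 82.7). The 10 alike genes were picked on all barcodes, these included, so the comparison is a description. The other 8 genes had 4 UMIs in the barcodes with the pair (214 CPM, 58.2 to 547) and 6 in those without (15.3 CPM, 5.61 to 33.3) in replicate 1, and 0 in both sets in replicate 2. Of those 4 UMIs, 2 of Csf3r and 1 of Mmp8 lay in 1 barcode, that with 84.7% mitochondrial UMIs named above. That barcode also held 1 UMI of Il1b, the most alike gene, and the intervals do not cover such differences between barcodes. Malat1 had 12 UMIs in 3 of the 14 barcodes with the pair in replicate 1 (641 CPM, 331 to 1120), against 1056 UMIs in 77 of the 426 without it (2692 CPM, 2532 to 2860). In replicate 2 it had 3 UMIs in 3 of 11 barcodes with the pair (286 CPM, 59.0 to 836), against 331 UMIs in 32 of 317 without it (1054 CPM, 943 to 1174). Its level was thus lower in the barcodes with the pair, while the share of barcodes holding it was not, at 21.4% with and 18.1% without in replicate 1 and 27.3% with and 10.1% without in replicate 2. Platelet list genes had 5 UMIs in the barcodes with the pair in replicate 1 (267 CPM, against 382 without) and 9 in replicate 2 (859 CPM, against 385), and the part of platelets in the stray UMIs was not tested.

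By mitochondrial share, in bins chosen after the values were seen, the pair was found most often between 80 and 95%. In replicate 1 it was in 2 of 74 barcodes with over 20 to 80% mitochondrial UMIs, 8 of 155 with over 80 to 95% (5.16%, 2.25 to 9.92%) and 4 of 211 with over 95%. In replicate 2 it was in 1 of 43, 9 of 126 (7.14%, 3.32 to 13.1%) and 1 of 159. The UMIs followed, with 3, 15 and 4 in replicate 1 and 1, 21 and 1 in replicate 2. The intervals of the middle and the upper bin overlapped in both libraries. Median depth was 1038, 759 and 772 UMIs in the 3 bins of replicate 1 and 736, 810 and 795 in those of replicate 2. Ptprc had 43, 7 and 0 UMIs in the 3 bins of replicate 1 and 3, 7 and 0 in those of replicate 2, and Csf3r had 5, 2 and 0 in replicate 1.

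**Figure D5:**
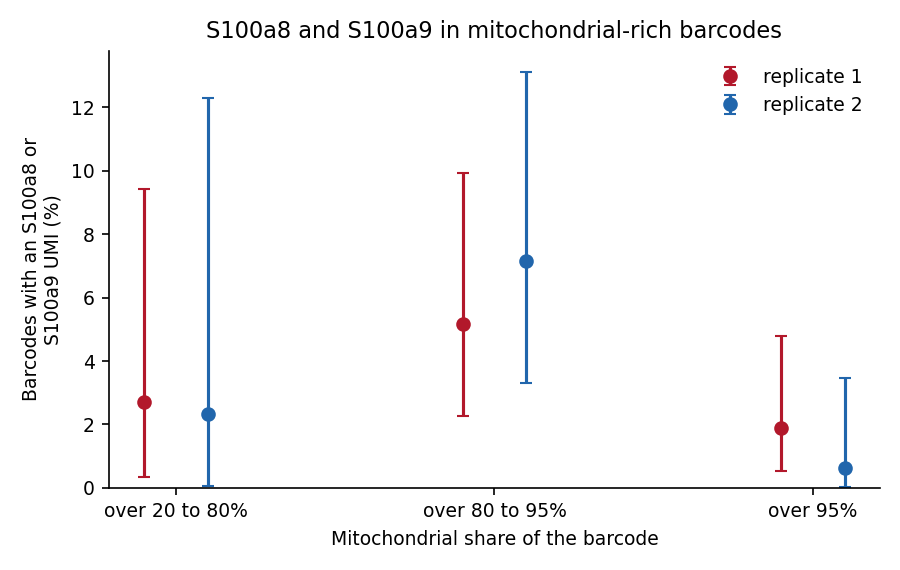
Percent of high-mitochondrial barcodes with at least 1 UMI of S100a8 or S100a9 by mitochondrial share of the barcode, replicate 1 in red and replicate 2 in blue, with exact binomial 95% intervals. The share is highest in the middle bin of both libraries, at 5.16% and 7.14%, and the intervals of neighbouring bins overlap.

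The class sums of both libraries were also compared by the quasi-likelihood test of edgeR, with a block for each library. Of the 10 genes, S100a9 alone had counts high enough to pass the filter on low values. It passed only through sums where it was high, other-class of replicate 1 (9150 CPM) and high-mitochondrial of replicate 2 (49.3 CPM). Its calls are thus not independent of the filter, and they are not evidence on the 10 genes as a set. S100a9 was higher in other-class than in red cell barcodes (log2 fold change 6.34, SE 1.90, edgeR adjusted p = 0.00322), where 57% of all 3395 genes tested were called higher and the median over all genes was 3.42 on the log2 scale. That call rests on replicate 1, since S100a9 had 2379 UMIs in the other-class barcodes of replicate 1 and 0 in those of replicate 2, and without replicate 1 the log2 fold change was -0.97. S100a9 was also higher in high-mitochondrial than in red cell barcodes (log2 fold change 4.49, SE 1.78, edgeR adjusted p = 0.0279), where 39.9% of all genes were called higher and the median was 3.28. Its level was higher in high-mitochondrial barcodes in 2 of 2 libraries. DESeq2 did not call it (adjusted p = 0.223), while the adjusted p of the edgeR alternatives ran from 1.19e-10 to 0.0412. Called genes split 1936 higher to 442 lower and 1354 to 352 in these comparisons, against 3240 to 40 and 2815 to 168 with scaling by total UMIs alone. Without the filter, S100a8, S100a9, Retnlg, Csf3r and Lcn2 were called higher in other-class than in red cell barcodes (5 of 10, against 11.2% of all 15852 genes). In other-class barcodes of replicate 2, S100a8, S100a9, Retnlg and Csf3r had 0 UMIs and Lcn2 had 1. These 5 calls thus rest on replicate 1, where the 4 neutrophil barcodes, picked by these genes, held most of the UMIs. They are not evidence on the 10 genes as a set. In high-mitochondrial against red cell barcodes S100a9 alone was called (1 of 10, against 5.1% of all genes), and S100a8 had a log2 fold change of 2.10 (edgeR adjusted p = 0.495).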

How the data were processed

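Droplet libraries of 2 replicates were deposited as raw UMI counts per gene and barcode. Cell Ranger 7.1.0 is named per the file headers, and Seurat 5 and mm10 per the submitters' processing notes. How barcodes were called, and whether doublets were removed upstream, was not given in the sources used here. All deposited barcodes were kept, since a filter would remove the stray counts studied.

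The genes, and 18 marker lists (125 genes, all matched), were chosen with earlier results of these data known. Genes named are the 10, listed genes with at least 5 UMIs, and the 10 genes most like S100a8 and S100a9, with other list genes named to complete a list. The values of 1 gene of the mature neutrophil list are not reported here. Counts were summed per class and library. Intervals are exact Poisson or Clopper-Pearson (scipy 1.17.1). Class sums were tested with edgeR 4.0.16 in R 4.3.3 (filterByExpr, TMM, library as block, 2 residual degrees of freedom, Benjamini-Hochberg over 3395 genes), with a spread shared across genes, after a check on simulated data. TMM factors ran from 0.0806 to 10.7. The pairing by replicate number is by library: the class sums of 1 number come from 1 library. DESeq2 1.42.0, other scalings, class limits and left-out libraries were alternatives.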

Additional observations from a re-analysis of the deposited data

How the results depend on the processing

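Counting barcodes with at least 2 of the genes and 3 of their UMIs gave 7 neutrophil barcodes in replicate 1, against 4, with 99.3% of the genes' UMIs, and 2 in replicate 2, against 0, with 39.3%. A rule of 5 genes and 20 UMIs left 3 barcodes in replicate 1 with 93.5% of the UMIs. The share was 95.3% without S100a8 and S100a9 and 96.4% (96.45) without barcode A, and the mature share was 96.0% without A. With haemoglobin at least 90%, the 10 genes had 0 CPM in red cell barcodes of replicate 1, against 1.21. Per 1e6 UMIs without haemoglobin and mitochondrial genes they had 461.8 and 578.1 CPM in high-mitochondrial barcodes of replicates 1 and 2, and 10.6 and 13.5 CPM in red cell barcodes.

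Scaled by total UMIs alone, edgeR called 3240 genes higher and 40 lower in other-class than in red cell barcodes, and 2815 and 168 in high-mitochondrial barcodes. With no filter 808 were higher in high-mitochondrial than in red cell barcodes, against 1354. Without the replicate block S100a9 had a log2 fold change of 7.46 in other-class and 3.65 in high-mitochondrial against red cell barcodes, and no call of S100a9 changed. Leaving out a replicate gave -0.97 to 7.45 in other-class barcodes, the negative value without replicate 1, and 1.90 to 3.68 in high-mitochondrial barcodes, values with no test. DESeq2 gave 4.50 (4.495) in high-mitochondrial barcodes with adjusted p = 0.223, and the cause was not tested. The remaining 49 values under alternatives are those sorted as unchanged, so their number is not a test. Counts, levels and shares among them stayed within set limits, and tested S100a9 values kept direction and call. The 4 barcodes, and stray counts of 1 or 2 UMIs, limit precision.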
